A study of Mus musculus with 6 samples.

Results

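Macrophage transcripts were followed in mammary epithelial cells sorted from 4-week-old C57BL/6 female mice, through 10 genes chosen because they mark macrophages: *Adgre1*, *Csf1r*, *Cd68*, *Lyz2*, *Mrc1*, *C1qa*, *C1qb*, *C1qc*, *Tyrobp* and *Fcer1g*. They are 10 of the 54418 gene identifiers in the count file. They were selected on their known use as macrophage markers, with no cutoff on a value, but their counts in all 6 libraries were known when they were chosen. The values below are therefore a description of these genes and carry no test of their own. The study compared 3 wild-type mice (Glis2+/+) with 3 mice carrying a germline knockout of *Glis2*, a zinc finger transcription factor (Glis2-/-), with 1 library of total RNA per mouse made from 1 ng. Because the deletion is germline, any macrophage in a Glis2-/- gland carried it as well as the epithelium. The single cells had been stained for CD45, CD31 and TER-119, which mark leukocytes, endothelium and red cells, and for CD24 and CD49f, which part the epithelial layers. Which of these gates went into the libraries is not given in the labels. The labels call the genotypes WT and KO.

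Macrophages live in the mammary gland both in the stroma and between the luminal and basal layers of the ducts. They depend on the CSF1 receptor, gather around terminal end buds at puberty, and are known to be needed for ducts to lengthen and branch. The genes followed here cover several of their functions: identity and growth factor receptors (*Adgre1*, which encodes F4/80, and *Csf1r*), scavenging and lysosomal degradation (*Mrc1*, *Cd68*, *Lyz2*), the 3 chains of complement C1q, and the signalling adaptors of activating receptors (*Tyrobp* and *Fcer1g*). Most of these proteins are made by other myeloid cells too, and *Mrc1* also by some endothelial cells.

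Because PU.1 binds purine-rich sites in many myeloid promoters, the 250 bases before the RefSeq start of each macrophage gene were searched for its core letters GAGGAA on either strand (TTCCTC on the other). RefSeq promoters on GRCm38.p6 were at hand for 6 of the 10 genes, and 4 of these 6 held the letters, as did 23.3% of 32851 promoters of the same length. A match is only a description of these letters. The promoters of *C1qb* (chr4:136886201-136886450, minus strand) and *Cd68* (chr11:69666171-69666420, minus strand) are shown because they hold a match and lie outside the annotated gene, and capitals mark the match.
C1qb: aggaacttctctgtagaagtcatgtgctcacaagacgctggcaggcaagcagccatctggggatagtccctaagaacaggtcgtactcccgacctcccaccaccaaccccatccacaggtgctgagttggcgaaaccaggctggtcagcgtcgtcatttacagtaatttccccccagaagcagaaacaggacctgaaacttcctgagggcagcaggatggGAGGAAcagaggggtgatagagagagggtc
Cd68: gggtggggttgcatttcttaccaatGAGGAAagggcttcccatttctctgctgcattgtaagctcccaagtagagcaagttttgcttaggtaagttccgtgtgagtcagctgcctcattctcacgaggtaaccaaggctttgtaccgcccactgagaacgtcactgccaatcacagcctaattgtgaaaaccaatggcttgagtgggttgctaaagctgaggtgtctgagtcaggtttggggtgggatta

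The 6 libraries held between 24996524 and 31393917 counts each. No 2 libraries matched within sampling noise, since their chi-square per degree of freedom was at least 15.1. *Glis2* itself had 671, 663 and 510 counts in the Glis2+/+ and 252, 509 and 510 counts in the Glis2-/- libraries. As normalized counts per 1000000 (CPM) these were 21.7, 23.2 and 19.6 CPM against 10.1, 17.0 and 16.3 CPM, so that every Glis2-/- library lay below every Glis2+/+ library while its transcript was still counted in all 6. Epithelial markers of both layers were abundant. The luminal keratin gene *Krt8* stood between 1238 and 1950 CPM and the basal smooth muscle gene *Myh11* between 1795 and 2670 CPM. Fibroblast and endothelial transcripts were present as well, with *Col3a1* between 1079 and 3943 CPM and *Pecam1*, which encodes CD31, between 44.6 and 198 CPM.

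The 10 macrophage genes were a trace component of every library. Together they held 6318 of 172113793 counts, and single values ran from 3 counts of *Tyrobp* to 542 counts of *Mrc1*. Per 1000000 counts, their sum was 41.0 (95% Wilson interval 38.8 to 43.3), 24.3 (22.5 to 26.2) and 37.7 (35.4 to 40.2) in Glis2+/+ mice 1, 2 and 3. In Glis2-/- mice 1, 2 and 3 it was 33.6 (31.4 to 35.9), 26.9 (25.1 to 28.8) and 55.3 (52.8 to 58.0). The highest library and the lowest were thus Glis2-/- mouse 3 and Glis2+/+ mouse 2, and of the other 4, Glis2+/+ mice 1 and 3 lay above Glis2-/- mice 1 and 2. These intervals cover counting error only. *Mrc1* contributed 30.3% of the counts, *Lyz2* 21.8%, *Csf1r* 14.7% and *Cd68* 10.1%, and *Tyrobp* the least with 1.28%.

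Set per transcript length, the macrophage genes were compared with *Epcam*, an epithelial adhesion gene, as TPM within each library. Summed over the 10 genes, their TPM came to 12.1%, 2.98% and 6.42% of that of *Epcam* in the Glis2+/+ mice and to 7.19%, 5.37% and 18.1% in the Glis2-/- mice. Both terms of this ratio varied: the summed TPM of the 10 genes ran from 3.25 in Glis2+/+ mouse 2 to 7.91 in Glis2-/- mouse 3, while that of *Epcam* was highest in the former (109) and lowest in the latter (43.8). By mean TPM over the 6 libraries the order was *Lyz2* (1.5), *Cd68* (0.831), *Csf1r* (0.535), *C1qc* (0.497), *Mrc1* (0.462), *C1qb* (0.403), *C1qa* (0.398), *Fcer1g* (0.368), *Tyrobp* (0.260) and *Adgre1* (0.134). *Lyz2* was first in all 6 libraries and *Cd68* second in 4 of them, while *Adgre1* was last or next to last throughout. The genes between them changed places from library to library, and *Csf1r* for instance ran from the second to the ninth place. *Ptprc*, which encodes CD45 and is carried by all leukocytes, lay between 0.536% and 5.01% of *Epcam*. TPM values here are small for every gene because *Gm23935*, annotated as a microRNA gene, took between 83.0% and 85.7% of each library's TPM, and ratios within a library do not depend on it.

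**Figure D1:**
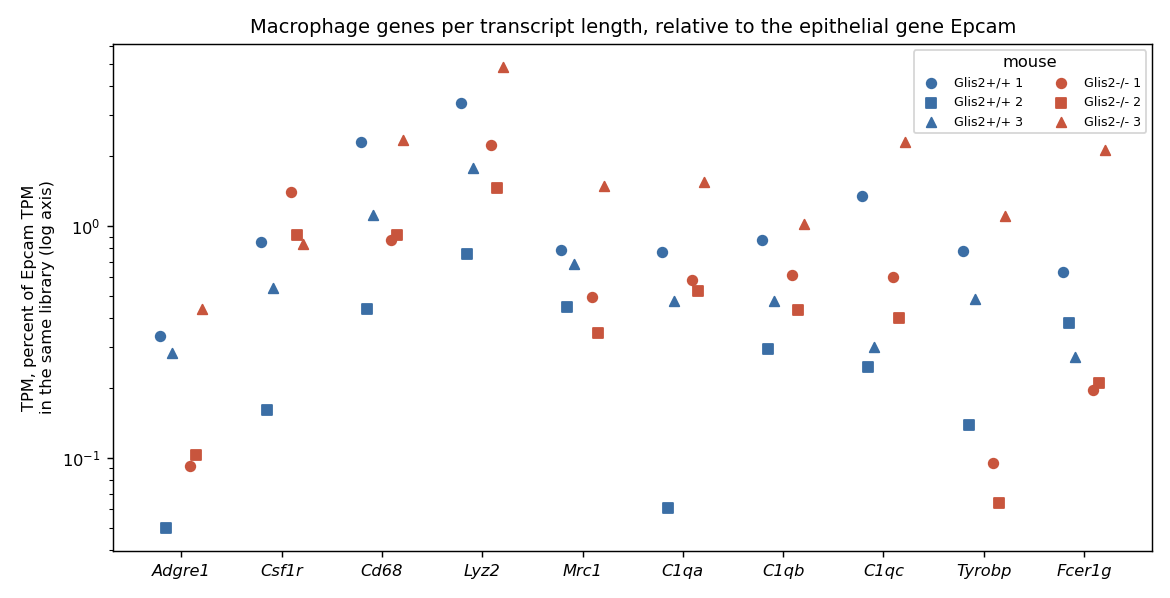
TPM of each of the 10 macrophage genes as a percent of *Epcam* TPM in the same library (y axis, logarithmic), with 1 point per mouse, Glis2+/+ in blue and Glis2-/- in red. *Lyz2* reaches 4.85% in Glis2-/- mouse 3, and the points of the genotypes mix for each gene.

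*Adgre1* (ENSMUSG00000004730, chromosome 17 of GRCm38, 57358691 to 57483527), the classical surface marker of mouse macrophages, had 73, 20 and 79 counts in the Glis2+/+ and 24, 14 and 20 counts in the Glis2-/- libraries. Glis2+/+ mice 1 and 3 stood above the other 4, and Glis2+/+ mouse 2 lay among the Glis2-/- mice. Normalized, this was a mean of 2.03 ± 1.2 CPM (SD, n = 3) for the wild type and of 0.689 ± 0.250 CPM (SD, n = 3) for the knockout, with a log2 fold change of −1.56 (standard error 0.66). On log2(TPM + 0.1) values the difference was −0.21, and Glis2-/- mouse 3, with 20 counts, had a TPM of 0.192, above the 0.164 of Glis2+/+ mouse 1 with 73 counts. *Csf1r* (ENSMUSG00000024621), the receptor for CSF1 and IL-34 on which macrophage survival depends, had 186, 77 and 140 counts in Glis2+/+ and 154, 151 and 219 counts in Glis2-/- libraries. Its lowest library was Glis2+/+ mouse 2 and the others overlapped, with a log2 fold change of 0.37 (standard error 0.35). This was 0.09 without Glis2+/+ mouse 2, 0.24 without Glis2-/- mouse 3, 0.57 without Glis2+/+ mouse 1 and 0.82 on log2(TPM + 0.1) values. *Csf1r* shares exonic bases with *Hmgxb3* on the opposite strand, which had between 941 and 1549 counts. Its TPM did not keep to its counts: Glis2-/- mouse 1 had a TPM of 1.06 from 154 counts and Glis2-/- mouse 3 a TPM of 0.368 from 219 counts. How reads were shared between the 2 genes was not tested.

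The genes of uptake and degradation held the larger part of the counts. *Lyz2* (ENSMUSG00000069516, chr10:117277331-117282321), which encodes the lysozyme of macrophages and neutrophils, had 274, 117 and 184 counts in Glis2+/+ and 213, 205 and 383 counts in Glis2-/- libraries. Its level was 6.68 ± 2.42 CPM (SD, n = 3) against 9.20 ± 2.76 CPM (SD, n = 3), a difference of 0.46 on the log2 scale (standard error 0.34) with overlapping genotypes. Without Glis2-/- mouse 3 the difference was 0.18, without Glis2+/+ mouse 2 it was 0.21, and without Glis2+/+ mouse 1 it was 0.71. Its near-identical neighbour *Lyz1* had 0 to 30 counts, 30 of them in Glis2+/+ mouse 2. *Cd68* (ENSMUSG00000018774, chr11:69664213-69666153), a glycoprotein of the lysosomal membrane, had 171, 62 and 106 counts in Glis2+/+ and 77, 71 and 152 counts in Glis2-/- libraries. The 2 highest libraries, Glis2+/+ mouse 1 and Glis2-/- mouse 3, were of different genotypes, and the log2 fold change of −0.19 (standard error 0.44) was 0.13 without Glis2+/+ mouse 1, 0.01 without Glis2-/- mouse 2 and −0.54 without Glis2-/- mouse 3. *Mrc1* (ENSMUSG00000026712, chr2:14229392-14332057), the mannose receptor CD206, had 293, 310 and 325 counts in Glis2+/+ and 219, 225 and 542 counts in Glis2-/- libraries. The Glis2+/+ mice were thus close together and lay between Glis2-/- mice 1 and 2 below and mouse 3 above, and the log2 fold change of 0.04 (standard error 0.33) became −0.44 without Glis2-/- mouse 3.

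**Figure D2:**
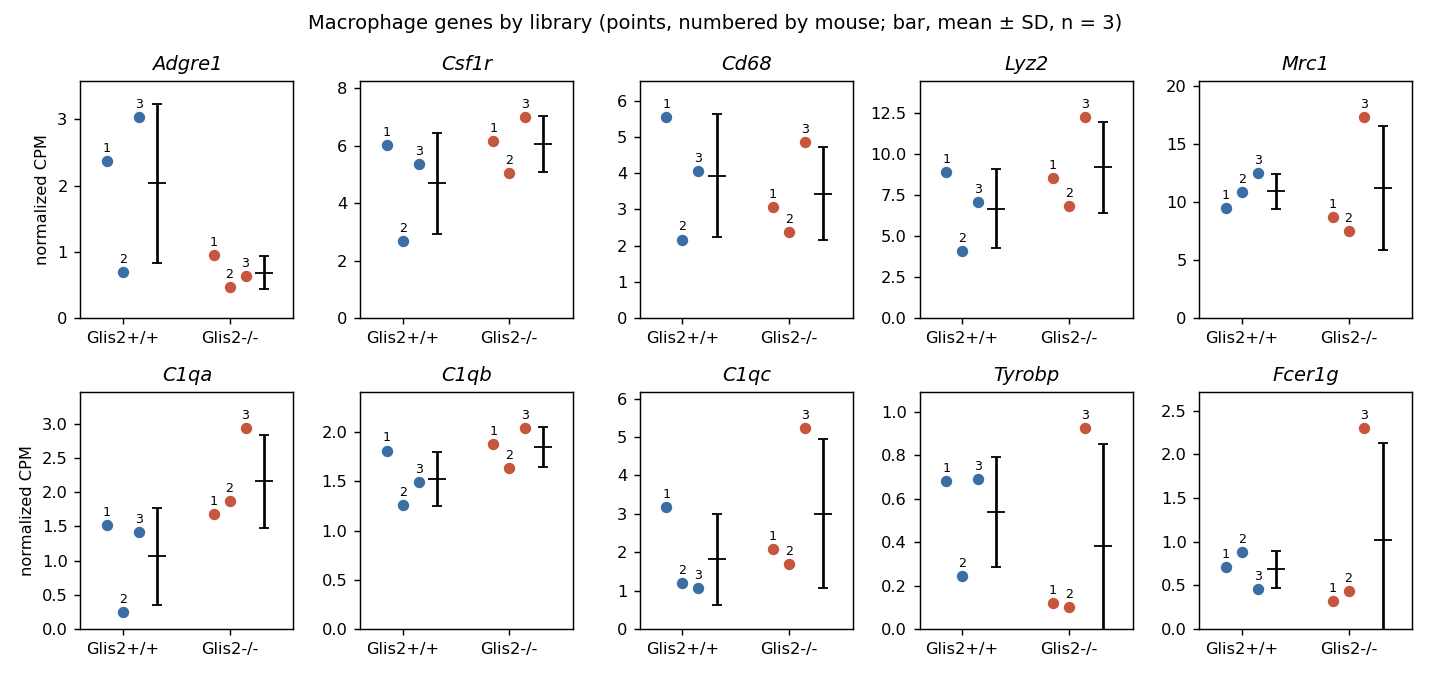
Normalized CPM of the 10 macrophage genes (y axis, a scale for each gene), with 1 numbered point per mouse and the mean ± SD of 3 mice beside it; SD bars that would pass below 0 end at the axis. Glis2-/- mouse 3 is the highest of the 6 libraries for 8 of the 10 genes and Glis2+/+ mouse 2 the lowest for 5.

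The 3 chains of C1q, the molecule that starts the classical complement pathway and tags debris for uptake, are encoded side by side within 18675 bases of chromosome 4 (136880129 to 136898803, minus strand). In complement C1q the chains are built in equal numbers. *C1qa* (ENSMUSG00000036887) had 47, 7 and 37 counts in Glis2+/+ and 42, 56 and 92 counts in Glis2-/- libraries, a log2 fold change of 1.02 (standard error 0.67). It was the only gene of the 10 whose genotypes did not overlap after normalization, a pattern that 11.7% of the 21236 genes tested showed, 6.23% with the knockout higher and 5.5% with it lower. The gap was narrow, from 1.52 CPM in the highest Glis2+/+ to 1.68 CPM in the lowest Glis2-/- library, or 47 counts (exact Poisson 95% interval 34.5 to 62.5) and 42 counts (30.3 to 56.8). Without Glis2+/+ mouse 2, its log2 fold change was 0.56. *C1qb* (ENSMUSG00000036905) was the steadiest of the 10 genes, with 56, 36 and 39 counts in Glis2+/+ and 47, 49 and 64 counts in Glis2-/- libraries, and its spread within a genotype (coefficient of variation 15.1%) was hardly above the 14.4% that counting alone gives at its mean count. *C1qc* (ENSMUSG00000036896) had 98, 34 and 28 counts in Glis2+/+ and 52, 51 and 164 counts in Glis2-/- libraries, and its log2 fold change of 0.73 (standard error 0.61) was 0.04 without Glis2-/- mouse 3. Per length, the TPM of *C1qa* was between 0.206 and 1.52 times that of *C1qb* and the TPM of *C1qc* between 0.636 and 2.28 times, with Glis2+/+ mouse 2 lowest for the *C1qa* ratio and Glis2-/- mouse 3 highest for both.

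The adaptors *Tyrobp* and *Fcer1g* carry the activating motifs through which receptors such as TREM2 and the Fc receptors signal to the kinase SYK, and they had the fewest counts of the 10 genes. *Tyrobp* (ENSMUSG00000030579, chr7:30413760-30417585) had 21, 7 and 18 counts in Glis2+/+ and 3, 3 and 29 counts in Glis2-/- libraries. At 3 counts the exact Poisson 95% interval runs from 0.619 to 8.77 counts, and for *Tyrobp* the Glis2-/- mice held both the lowest values and the highest. Its log2 fold change of −0.48 (standard error 1.04) was −2.27 without Glis2-/- mouse 3. *Fcer1g* (ENSMUSG00000058715, chr1:171229572-171234365) had 22, 25 and 12 counts in Glis2+/+ and 8, 13 and 72 counts in Glis2-/- libraries. Here 1 Glis2-/- library was high and the other 5 were low, and its log2 fold change moved from 0.58 (standard error 0.86) to −0.86 without that mouse. The spread within a genotype was 93.4% of the mean for *Tyrobp* and 80.2% for *Fcer1g*, where counting alone gives 27.2% and 19.9%.

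Across the comparison of genotypes, edgeR's quasi-likelihood test over 21236 genes called 0 genes (0% of genes tested; thresholds 0.05 for the adjusted p and 0.58 for the log2 fold change in either direction), with 1130 genes (5.32%) at an unadjusted p under 0.05 and a smallest adjusted p of 0.392. None of the 10 macrophage genes was therefore called, and none by DESeq2, which called 48 genes (0.178% of the genes it adjusted). All 10 passed the filter on low counts. Of them 7 had a higher and 3 a lower mean in Glis2-/- cells, with a median log2 fold change of 0.32 beside 0.01 for all genes tested, of which 51.6% were higher. On log2(TPM + 0.1) values the median of the 10 genes was 0.034. The summed CPM of the 10 genes was 33.9 ± 8.43 (SD, n = 3) in Glis2+/+ and 39.0 ± 14.6 (SD, n = 3) in Glis2-/- cells, a fold of 1.15 between the means against a fold of 1.65 between the highest and lowest Glis2+/+ and 1.98 between the highest and lowest Glis2-/- mouse. Without Glis2-/- mouse 3 the median log2 fold change was −0.20 and the log2 ratio of the sums −0.14, so that this mouse decided the direction. Leaving out Glis2+/+ mouse 2 instead gave a median of 0.13 and a log2 ratio of the sums of 0.01. In bulk RNA, fewer macrophages and less RNA per macrophage cannot be told apart.

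**Figure D3:**
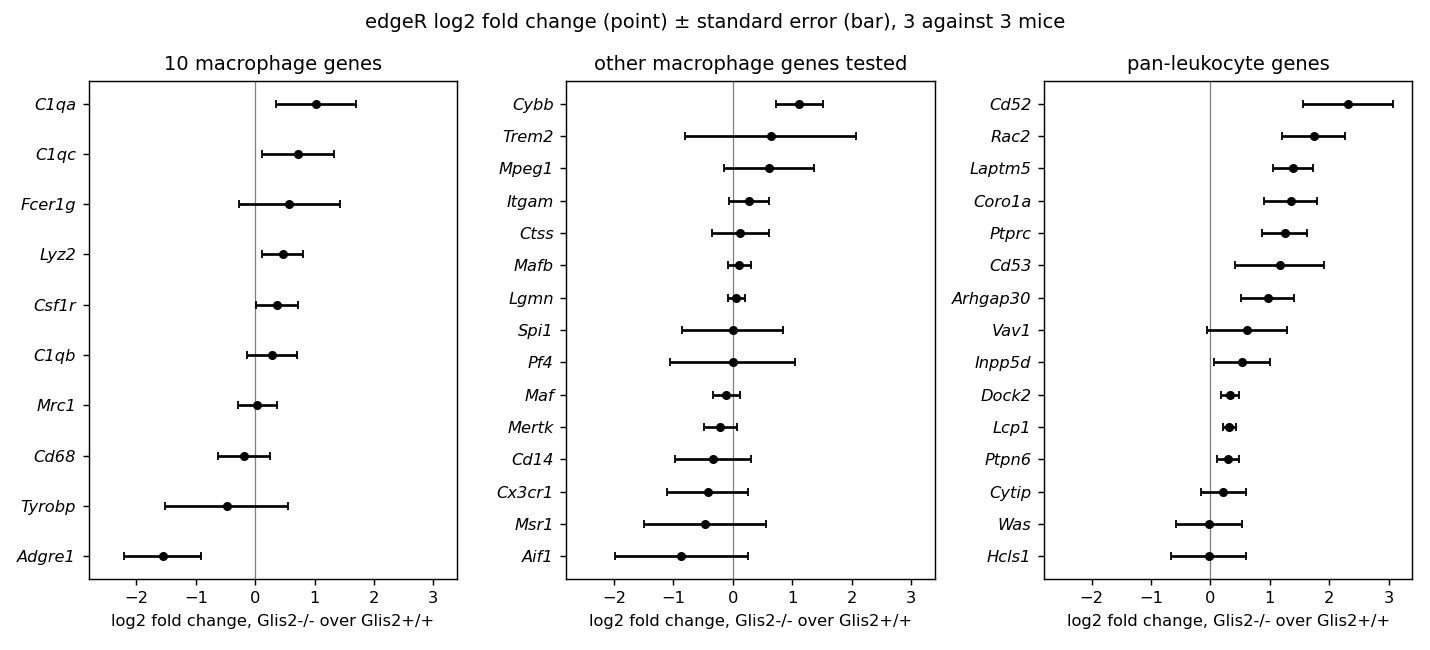
Log2 fold change of Glis2-/- over Glis2+/+ cells (x axis; point) with its standard error (bar) from edgeR, for the 10 macrophage genes, the 15 other macrophage genes tested and 15 pan-leukocyte genes. The first 2 groups lie on both sides of 0, while 13 of the 15 pan-leukocyte genes lie above it; no gene was called.

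A list of 20 further macrophage genes was looked up in the same fit. Of these, 15 passed the filter on low counts and 0 were called (smallest adjusted p 0.906 from edgeR), with 7 higher and 8 lower in Glis2-/- cells and a median log2 fold change of −0.002. *Itgam*, which encodes the integrin CD11b, had 192, 91 and 163 counts in Glis2+/+ and 177, 147 and 218 counts in Glis2-/- libraries, with Glis2+/+ mouse 2 again the lowest. *Spi1*, which encodes PU.1, the transcription factor that myeloid cells require, had only 4 to 27 counts per library. The genes of this list with the highest CPM were *Lgmn*, a lysosomal protease (24.6 to 31.8 CPM), and *Cd14*, a lipopolysaccharide co-receptor that mammary luminal progenitors also make (9.69 to 46.1 CPM). *Cd14* ran against the macrophage genes, with its highest values in Glis2+/+ mouse 2 and Glis2-/- mouse 2, where they were lowest. Among genes typical of stromal macrophages, 5 of 5 were tested and 1 was higher and 4 lower in Glis2-/- cells. Of these, *Lyve1*, which lymphatic endothelium also expresses, stood at 3.75 to 15.1 CPM and *Cd163* at 2.37 to 9.75 CPM. Of 3 genes typical of ductal macrophages, *Cx3cr1* had 17 to 66 counts and *Itgax*, which encodes CD11c and did not pass the filter, 0 to 37, while *Cadm1*, an adhesion gene that many epithelia express, stood at 52.0 to 69.9 CPM.

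The partners of these proteins were followed by lists. Of 10 genes for CSF1 receptor ligands, monocyte attractants and their receptors, 9 were tested and 0 called, with 3 higher and 6 lower in Glis2-/- cells. *Csf1* itself, the growth factor of macrophages, averaged 59.8 ± 25.3 CPM (SD, n = 3) in the wild type and 47.6 ± 8.08 CPM (SD, n = 3) in the knockout, with a log2 fold change of −0.33 (standard error 0.28). The chemokine genes *Cxcl12* (40.0 to 162 CPM) and *Cx3cl1* (52.4 to 85.2 CPM) led this list. Of 9 complement genes that act with C1q, 8 were tested and 0 called (3 higher, 5 lower), and the central component *C3* averaged 144 ± 72.4 CPM (SD, n = 3) in the wild type against 130 ± 22.5 CPM (SD, n = 3) in the knockout. The protease gene *C1s1*, whose product acts together with C1q, stood at 36.9 to 86.7 CPM. Of 13 receptors and kinases that work with TYROBP and FCER1G, 6 were tested and 0 called (4 higher, 2 lower). The kinase and phospholipase genes *Lyn* (41.2 to 64.8 CPM) and *Plcg2* (39.1 to 78.2 CPM) were well measured. Both ran against the macrophage genes, highest in Glis2+/+ mouse 2 and lowest in Glis2-/- mouse 3. The Fc receptor genes *Fcgr1*, *Fcgr3* and *Fcgr4* had 0 to 23 counts and *Fcer1a* had 0 counts in each library.

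The order of the libraries by the macrophage genes was shared with endothelial genes and, in part, with fibroblast genes. From high to low, the summed CPM of the 10 genes ran Glis2-/- mouse 3, Glis2+/+ mouse 1, Glis2+/+ mouse 3, Glis2-/- mouse 1, Glis2-/- mouse 2 and Glis2+/+ mouse 2. The 6 endothelial genes gave the same order, with sums of 665, 649, 466, 415, 185 and 124 CPM, led by *Cdh5* and *Pecam1*. The 6 fibroblast genes, led by *Col3a1* and *Col1a1*, gave 5880, 7360, 7730, 4260, 2580 and 2290 CPM in that order of libraries. The 6 luminal epithelial genes, led by *Krt8* and *Krt18*, ran the other way apart from the nearly level first pair, with 3550, 3520, 4630, 4850, 5790 and 5830 CPM. As a description over the same 6 libraries, the log2 CPM of endothelial genes had a median Pearson's r of 0.92 with the mean log2 CPM of the macrophage genes (Spearman's rho 0.94), fibroblast genes 0.83 (rho 0.77) and luminal genes −0.96 (rho −0.94), where all genes tested had 0.01. Without Glis2-/- mouse 3 these medians were 0.93, 0.96 and −0.94. The 15 further macrophage genes tested had a lower median r of 0.53 (0.50 without that mouse) and the pan-leukocyte genes 0.50 (0.07 without it). The summed CPM of the further macrophage genes gave another order, with Glis2+/+ mouse 3 highest (129 CPM), Glis2+/+ mouse 2 next (123 CPM) and Glis2+/+ mouse 1 lowest (113 CPM). That sum includes *Cd14*, which had an r of −0.82 and ran from 9.69 CPM in Glis2+/+ mouse 1 to 46.1 CPM in Glis2+/+ mouse 2. The order without *Cd14* was not tested. The libraries share their normalization and their sorting, and the part of these other cells in the level of the macrophage genes was not tested.

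**Figure D4:**
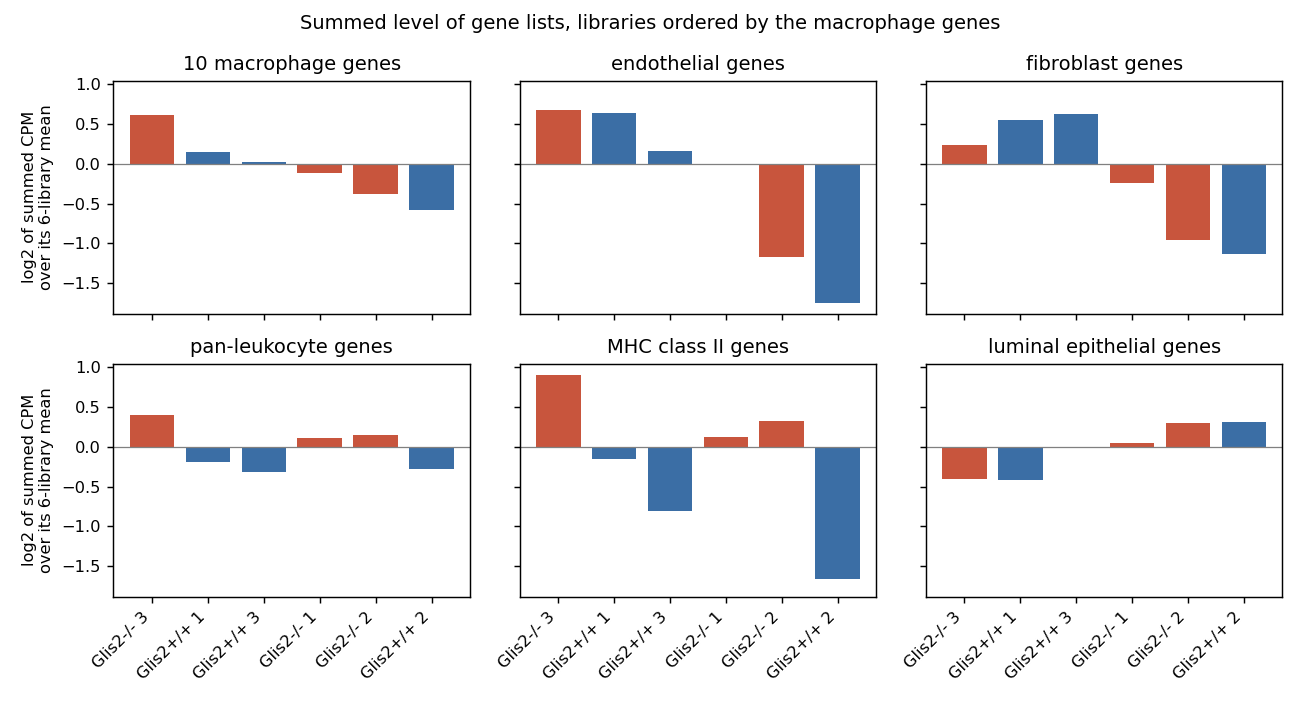
Summed CPM of 6 gene lists in each library as log2 of the ratio to its 6-library mean (y axis), with the libraries ordered by the sum of the 10 macrophage genes and colored by genotype (blue Glis2+/+, red Glis2-/-). Endothelial and fibroblast genes fall off in the same 2 libraries at the right, luminal genes are highest there, and pan-leukocyte and MHC class II genes are higher in all 3 Glis2-/- libraries.

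By likeness over the 6 libraries, the 10 genes nearest to the mean of the macrophage genes were *4632418H02Rik*, *Prmt6*, *Il4ra*, *Fam19a5*, *Gimap1*, *Shkbp1*, *Pcdh7*, *Gm16279*, *Sema6d* and *Axl*, with Pearson's r between 0.986 and 0.999 (rho 1 for each). *Axl*, which encodes a receptor for the uptake of dying cells, stood at a mean of 116 CPM and *Il4ra*, a chain of the interleukin-4 receptor, at 60.1 CPM. These values were the highest of 21236 genes over only 6 libraries, and nothing is read from them about shared function.

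Genes of leukocytes in general were set beside the macrophage genes. Of 15 pan-leukocyte genes, 13 had a higher and 2 a lower mean in Glis2-/- cells, with a median log2 fold change of 0.62 and 0 called, and for 7 of them the 3 Glis2-/- libraries lay above the 3 Glis2+/+ libraries, as for 6.23% of all genes tested. The list was led by *Lcp1* and *Dock2*, which encode an actin bundler and an activator of the GTPase RAC. *Ptprc* had 340, 228 and 252 counts in Glis2+/+ and 370, 435 and 1212 counts in Glis2-/- libraries. After normalization the genotypes did not overlap, with 9.56 ± 1.52 CPM (SD, n = 3) against 22.7 ± 13.9 CPM (SD, n = 3) and a difference of 1.25 on the log2 scale (standard error 0.39) that edgeR did not call (adjusted p = 0.906). Relative to *Csf1r*, counts of *Ptprc* were 1.83, 2.96 and 1.80 times as many in the Glis2+/+ and 2.40, 2.88 and 5.53 times as many in the Glis2-/- libraries. The 5 MHC class II genes, which macrophages share with B cells and dendritic cells, were higher in Glis2-/- cells in 5 of 5 cases (median log2 fold change 1.27, 0 called), led by *Cd74* with 16.7 ± 7.32 and 39.4 ± 11.9 CPM (SD, n = 3) and by *H2-Ab1*. The 4 B cell genes tested (4 higher, 0 lower) had a median of 1.46, led by *Ighm* and *Cd79a*. The 6 T and NK cell genes tested (5 higher, 1 lower) had a median of 1.05. By CPM they were led by *Cd3d*, which was the lower gene with −0.10, and *Lck*, and 0 were called in either list. Beside these stand the 0.32 of the 10 macrophage genes and the −0.002 of the further ones, and the difference between the lists was not tested.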

How the data were processed

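RNA of sorted mammary epithelial cells was sequenced from 6 mice, 3 of each genotype. The authors quantified transcripts with Salmon 1.2.1 (mm10) and summarized them per gene with tximport. The deposited estimated counts are not normalized and were already whole, and the deposited log2 values are log2(TPM + 1) as the authors made them. How Salmon treated strand is not given in the sources used here. Of 54418 gene identifiers, 54096 were matched to a symbol, and positions came from a GRCm38 annotation.

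The genes and the 21 lists were chosen with earlier results of these data known. Counts were fitted over all genes with edgeR 4.0.16 (R 4.3.3; filterByExpr, TMM, quasi-likelihood test), and calls needed a Benjamini-Hochberg adjusted p of 0.05 or less with a log2 fold change of 0.58 or more in either direction. CPM are counts per 1000000 of the TMM-scaled library. TPM were taken back from the log2 values. The functions were tested on simulated data. Alternatives were DESeq2 1.42.0, its size factors, no filter on low counts, a filter of 10 counts in every library, log2(TPM + 1) and log2(TPM + 0.1) values tested by limma 3.58.1, the replicate number as a block, leaving out each mouse, and, added after seeing the data, the sum without *Mrc1*. Named are the 10 genes, called genes of the other lists or else the 2 with the highest mean CPM, *Ptprc*, *Itgam*, *Spi1* and the sort antigens, and the 10 genes nearest by Pearson's r. *Csf1*, *Itgax*, *Lyz1*, *Hmgxb3*, *Epcam*, *Gm23935*, *Retnlg*, *Camp* and the Fc receptor genes were chosen after their values were seen. Precision is limited by 3 to 542 counts per gene and library.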

Additional observations from a re-analysis of the deposited data

How the results depend on the processing

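The count of 0 called macrophage genes was the same in all 13 alternatives, for the 10 genes and for the further macrophage genes. The count over all genes was 48 with DESeq2, 40 without a filter on low counts and 1 with log2(TPM + 0.1) in limma, and 0 in the others. The cause was not tested. The median of the 10 genes' log2 fold changes lay between 0.034 with log2(TPM + 0.1) and 0.32 in the alternatives that kept every mouse, and between −0.20 and 0.49 without 1 mouse. The log2 ratio of their sums lay between −0.14 and 0.39 without 1 mouse and was 0.28 without *Mrc1*. The median of the further macrophage genes, −0.002 over 15 genes, was taken over other genes in some alternatives. It was 0.076 with DESeq2 and 0.079 without a filter, each over 20 genes. With at least 10 counts in every sample it was 0.068 over 10 genes. Over the same 15 genes it was 0.103 with the replicate block, −0.006 with DESeq2 size factors, −0.078 with log2(TPM + 1) and −0.192 with log2(TPM + 0.1). Without 1 mouse it lay between −0.003 and 0.20, over 15 or 16 genes. Of the 10 genes, 7 kept their direction in every alternative that tested them. *C1qa*, *Tyrobp* and *Fcer1g* had no value with at least 10 counts in every sample. *Mrc1* had −0.063 and −0.195 with log2(TPM + 1) and log2(TPM + 0.1) in limma and −0.055 with the replicate block. *Fcer1g* had −0.022 with log2(TPM + 0.1) and 0.00046 with the replicate block. Without 1 mouse, *Cd68* ranged from −0.54 to 0.13, *Mrc1* from −0.44 to 0.25, *Fcer1g* from −0.86 to 1.00, *Adgre1* from −1.97 to −1.16, *C1qa* from 0.56 to 1.36, *C1qb* from 0.16 to 0.41, *C1qc* from 0.04 to 1.40 and *Tyrobp* from −2.27 to −0.03. For mice with the same replicate number, the correlations of their deviations were −0.02, 0.13 and 0.01, and the replicate block changed no call. Whether such mice shared anything besides that number cannot be told from these values.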

Other observations

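Other cell types than those above were followed by their own lists. Neutrophil genes were close to absent: 3 of 8 were tested, *Retnlg* and *Camp* had 0 counts in each library, and the leading pair, *Csf3r* and *Cxcr2*, had 5 to 34 and 11 to 27 counts. Of 6 mast cell genes 2 were tested. By mean CPM the list was led by *Cpa3*, with 0 to 59 counts, and *Cma1*, which did not pass the filter on low counts, with 0 to 61. Of 7 dendritic cell genes 5 were tested, led by *Zbtb46* (2.49 to 11.2 CPM), which endothelium also expresses, and *Ccr7* (0.360 to 3.96 CPM). Of 7 erythroid genes 5 were tested, led by *Hba-a2* (4.13 to 15.8 CPM) and *Hbb-bs* (0.280 to 10.1 CPM). Of 5 adipocyte genes 4 were tested, 1 higher and 3 lower in Glis2-/- cells, led by *Plin1* (2.44 to 14.4 CPM) and *Adipoq* (0 to 4.07 CPM). The 6 basal epithelial genes were higher in Glis2-/- cells in 6 of 6 cases with a median log2 fold change of 0.42, led by *Myh11* and *Acta2*. The antigens used to keep epithelial cells, *Cd24a* and *Itga6*, stood at 258 to 464 and 561 to 768 CPM. None of these genes was called by edgeR (0 of 21236 genes tested, 1130 at an unadjusted p under 0.05; 48 genes by DESeq2).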
